A study of Homo sapiens with 40 samples.

Results

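Cystatins and cathepsins, a set of 10 genes listed by name out of 60708 genes in the count files, were followed through 24 RNA-seq libraries. The set holds 5 cystatin-type inhibitors (CST3, CST6, CST7, CSTA and CSTB), 4 cysteine cathepsins (CTSB, CTSL, CTSV and CTSZ) and the aspartic cathepsin CTSD. All 10 were found by symbol. The members were chosen from a list drawn up with their levels in these same libraries known, and no contrast or threshold was part of the rule. Their adjusted p-values are therefore the members' rows of a fit over all genes and not independent evidence about the set.

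The study compared TGFβ responses of normal-like and RAS-transformed mammary cells and tested SLUG and SMAD dependence in a breast cancer line, and it lists 40 samples, of which the 16 ATAC-seq samples were not analysed here. MI is MCF-10A, an immortalised human mammary epithelial line, and MII is MCF-10AneoT, its derivative that carries oncogenic HRAS. Both were grown as spheres in ultra-low attachment plates and were either left unstimulated (Ctrl) or given TGFβ1 at 2.5 ng/ml for 16 h. MDA-MB-231, a mesenchymal-like breast carcinoma line, was grown in monolayer as WT cells, as SLUG KO cells expanded from single-cell colonies after delivery of Cas9 and a guide against the start of the first SNAI2 exon, after transfection of siRNAs against SMAD2, SMAD3 and SMAD4 (siSMAD2/3/4), or after control siRNA (Csi). Each of the 8 groups had 3 libraries, with 14124688 to 38406952 counted fragments per library. The study's general statement on statistics speaks of independent biological repeats without naming these libraries, and how many clones the SLUG KO libraries represent is not given in the sources used here, so the p-values measure the spread between these libraries.

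Cathepsins are proteases made as inactive proenzymes, sorted to the lysosome through mannose 6-phosphate receptors and activated there. Most are papain-like cysteine proteases, whereas CTSD cuts with a pair of aspartates. Cystatins block the cysteine cathepsins by filling the active-site cleft and do not inhibit CTSD. CSTA and CSTB (stefins A and B) stay inside cells, while CST3 (cystatin C), CST6 (cystatin E/M) and CST7 (cystatin F) carry signal peptides. In skin and breast epithelium the balance of cystatins and cathepsins is known for its part in cornification, matrix turnover and invasion.

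Series-wide checks bore on these genes as follows. HRAS averaged 220.1 CPM in unstimulated MII- and 40.7 CPM in unstimulated MI-spheres, where CPM is a count divided by the TMM-scaled total of its library, with all 24 libraries scaled together. SMAD2, SMAD3 and SMAD4 were lower in siSMAD2/3/4 than in Csi libraries by 1.92, 0.69 and 1.72 on the log2 scale. SNAI2 RNA was not lower in the libraries labelled SLUG KO, at 63.5, 57.7 and 64.3 CPM against 30.2, 20.9 and 33.7 CPM in WT. An edit at the start of the coding region need not lower the RNA, so this count does not check the label. The study states that ddPCR and immunoblotting were used to check its knock-out clones. The 6 epithelial markers, among them CDH1 and EPCAM beside basal keratin genes and TP63, summed to between 1092 and 3992 CPM per sphere library and to at most 42.9 CPM in MDA-MB-231 libraries. Between libraries of a group, r across genes lay from 0.984 to 0.994 in 7 groups and from 0.952 to 0.989 in WT, where replicate 2 stood apart. The Csi and siSMAD2/3/4 libraries carry another batch label than the other 18, and that label gives all 6 the same flow cell. The names of the files of siSMAD2/3/4 replicates 1 and 2 give another flow cell than those of replicate 3 and Csi, and which source is right was not settled.

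CTSV and CTSL are close paralogs on chromosome 9, and their coding sequences had 83.5% identical bases over 999 aligned bases, with a longest identical run of 40 bases. CTSV (cathepsin V, ENSG00000136943) lies on the minus strand at chr9:97029677-97156556 and CTSL (cathepsin L, ENSG00000135047) on the plus strand at chr9:87724051-87731469. CTSL is made in nearly all cells, whereas CTSV is known from thymus, testis, cornea and epidermis. The 250 bases before their RefSeq start sites (GRCh38.p14) are shown because both genes share a stretch there. The level of CTSV nevertheless differed far more between MI- and MII-spheres than that of CTSL. In both genes these bases lie inside the span given above and not at its annotated 5′ end. Which start sites the cells used was not tested. The windows are chr9:97039143-97039392 for CTSV and chr9:87725869-87726118 for CTSL, each printed 5′ to 3′ on the strand of its gene, and capitals mark the 23 bases the windows have in common.
CTSV: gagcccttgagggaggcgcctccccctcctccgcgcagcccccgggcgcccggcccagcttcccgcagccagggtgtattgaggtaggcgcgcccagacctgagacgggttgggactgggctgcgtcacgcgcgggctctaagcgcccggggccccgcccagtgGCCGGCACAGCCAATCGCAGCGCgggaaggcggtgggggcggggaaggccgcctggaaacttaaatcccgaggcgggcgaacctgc
CTSL: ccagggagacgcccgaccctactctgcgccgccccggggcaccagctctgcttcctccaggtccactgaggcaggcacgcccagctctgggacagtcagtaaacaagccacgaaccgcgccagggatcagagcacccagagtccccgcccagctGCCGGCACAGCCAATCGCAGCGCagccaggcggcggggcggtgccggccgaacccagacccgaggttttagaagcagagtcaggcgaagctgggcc

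The shared run begins 86 bases before the CTSV start and 96 bases before the CTSL start. It contains CCAAT, the letters of the CCAAT box bound by NF-Y, and was found in 2 of the 35116 promoters of the RefSeq table, those of CTSV and CTSL. CCAAT itself, searched on both strands, was in 32.0% of all promoters of this length. The table held 5 of the 10 members (CST3, CTSD, CTSL, CTSV and CTSZ). Their promoters were searched on both strands for the AP-1 letters TGANTCA, the Snail E-box letters CACCTG, the SMAD box letters CAGACA, the SOX letters AACAAAG and the CLEAR E-box letters CACGTG, the core of the element bound by the lysosomal regulator TFEB. None of these words was in the CTSV, CTSL or CST3 window. CACGTG lay 47 bases before the start of CTSD, and 6.3% of all promoters held it. The Snail E-box letters lay 157 bases before the start of CTSZ, and 17.5% of all promoters held them. The AP-1, SMAD box and SOX letters were in 6.6%, 13.6% and 4.5% of all promoters. The CTSD window, chr11:1763928-1764177 on the minus strand, is printed with the CLEAR E-box letters in capitals because CTSD is the member with a match to the lysosomal word.
CTSD: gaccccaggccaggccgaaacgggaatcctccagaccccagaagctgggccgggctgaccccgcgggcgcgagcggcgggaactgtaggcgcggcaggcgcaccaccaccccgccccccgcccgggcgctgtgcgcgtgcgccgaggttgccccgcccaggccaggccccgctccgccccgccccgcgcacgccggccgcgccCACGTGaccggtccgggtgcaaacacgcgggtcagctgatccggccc

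The level of CTSV separated the HRAS-transformed line from every other group. In unstimulated MII-spheres it was 229.7, 207 and 220.0 CPM, and in TGFβ-stimulated MII-spheres 474, 490.0 and 465 CPM. In MI-spheres it was 7.21, 6.02 and 5.81 CPM without and 6.97, 6.18 and 8.21 CPM with TGFβ. Every MII library was thus far above every MI library, and stimulated and unstimulated MII libraries did not overlap. In MDA-MB-231 cells CTSV ranged from 2.22 to 5.57 CPM over 12 libraries, from 68 to 122 fragments per library. In the order of group means, MI TGFβ and MI Ctrl overlapped, as did Csi and siSMAD2/3/4, and the other neighbours did not.

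CTSL followed another order and varied less, as seen in the plot of levels by library. It was highest in the libraries labelled SLUG KO, at 206, 195.5 and 201 CPM, and lowest in siSMAD2/3/4, at 55.9, 55.0 and 50.8 CPM. In MI-spheres CTSL was 123, 125 and 128 CPM without and 151, 132.5 and 155 CPM with TGFβ. In MII-spheres it was 107.1, 97.3 and 95.6 CPM without and 117, 110.9 and 118 CPM with TGFβ. WT libraries spread from 59.1 CPM in replicate 2 to 111.5 CPM in replicate 3 and overlapped with unstimulated MII-spheres and with Csi. The other neighbouring groups in the order did not overlap.

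CSTA differed by line. This gene (ENSG00000121552, chromosome 3, plus strand, 122325248 to 122341969), the stefin of stratified epithelia and of leukocytes, was 282, 304 and 302 CPM in unstimulated MI-spheres and 59.7, 50.6 and 57.4 CPM in unstimulated MII-spheres. With TGFβ it was 278, 256 and 351 CPM in MI- and 60.3, 61.0 and 56.7 CPM in MII-spheres. In MDA-MB-231 cells CSTA had no fragment in 10 of 12 libraries and 1 fragment in each of the other 2. The lines did not overlap, whereas stimulated and unstimulated spheres of each line did.

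CST6 (ENSG00000175315, chromosome 11, plus strand, 66012008 to 66013505) encodes the secreted inhibitor of legumain and of cathepsins L and V. It was 37.3, 34.9 and 39.5 CPM in MI Ctrl, 87.1, 78.2 and 94.3 CPM in MI TGFβ, 125, 139 and 123 CPM in MII Ctrl and 184, 151 and 179 CPM in MII TGFβ. MDA-MB-231 libraries held between 4.02 and 18.0 CPM. None of the 8 groups overlapped with its neighbour in the order MII TGFβ, MII Ctrl, MI TGFβ, MI Ctrl, SLUG KO, WT, Csi and siSMAD2/3/4.

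CST7 (ENSG00000077984, chromosome 20, plus strand, 24949269 to 24959928), a cystatin known from cytotoxic and myeloid cells and an inhibitor of cathepsin C, had 0 to 7 fragments per library in the 12 sphere libraries. It was 3.49, 3.73 and 4.30 CPM in WT, 39.9, 36.7 and 39.1 CPM in the libraries labelled SLUG KO, 6.87, 8.25 and 7.70 CPM in Csi and 9.39, 9.36 and 9.56 CPM in siSMAD2/3/4. The 4 MDA-MB-231 groups did not overlap, and the 4 sphere groups did.

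CST3 (ENSG00000101439, chromosome 20, minus strand, 23626706 to 23638473) encodes the widely secreted cystatin C. Its group means ran from 162 CPM in MI Ctrl to 957 CPM in siSMAD2/3/4, with a step between WT (192, 382 and 233 CPM) and Csi (847, 864 and 765 CPM), both MDA-MB-231 cells. WT and Csi differ in siRNA transfection and in batch label, and the part of each in this step cannot be told apart. From WT down to MI Ctrl each group overlapped with the next. CSTB (ENSG00000160213, chromosome 21, minus strand, 43772511 to 43776330), the widely expressed stefin, ranged from 195 to 197 CPM in MII TGFβ down to 29.7 to 71.5 CPM in WT. MII Ctrl, siSMAD2/3/4, Csi, MI Ctrl and MI TGFβ formed a run in which each overlapped with the next.

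The remaining cathepsins were high in every library. CTSB (ENSG00000164733, chromosome 8, minus strand, 11842524 to 11869533), an endopeptidase that also removes dipeptides, spanned 241 to 581 CPM over the 24 libraries. Its group means were highest in the MII-spheres and lowest in WT and SLUG KO, and these overlapped within each of those pairs. CTSD (ENSG00000117984, chromosome 11, minus strand, 1752752 to 1764573) ran from 208.5 CPM in WT replicate 1 to 1420 CPM in siSMAD2/3/4 replicate 2. CTSD shares 48.0% of its exonic bases with 3 other annotated genes, and fragments that fit several genes were not counted, so its level is uncertain. CTSZ (ENSG00000101160, chromosome 20, minus strand, 58985686 to 59008238), a carboxypeptidase that removes single residues, ran from 118 CPM in MI Ctrl to 382 CPM in Csi. CTSZ shares 31.7% of its exonic bases with NELFCD on the opposite strand, and NELFCD had at most 5 counted fragments in any library. CTSZ counts may therefore hold NELFCD fragments, and this limit also applies to the CTSZ shares and fold changes below. The strand was ignored in counting.

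Levels of different genes were compared per length, as TPM, the count relative to the exonic length in the files and to the sum of such values in the library, and only as ratios within a library. CTSV RNA was 0.0424 ± 0.0058 times CTSL RNA in MI Ctrl and 0.0405 ± 0.0031 times in MI TGFβ (SD, n = 3). The ratio was 1.83 ± 0.0793 in MII Ctrl and 3.45 ± 0.21 in MII TGFβ. In MDA-MB-231 groups its mean lay between 0.0215 and 0.0372. CTSV therefore exceeded CTSL per length in all 6 MII libraries and in no other library.

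The largest cystatin share was that of CSTA in unstimulated MI- and of CST6 in unstimulated MII-spheres. CSTA made up 60.3% ± 1.55 of the summed TPM of the 5 cystatins in MI Ctrl and CST6 17.5% ± 1.04. In MII Ctrl CSTA made up 11.9% ± 1.43 and CST6 62.7% ± 1.57. With TGFβ the CST6 share was 32.3% ± 1.06 in MI- and 65.8% ± 1.77 in MII-spheres (SD, n = 3). Of these 5, CST3 was the largest share in each MDA-MB-231 group, from 42.8% ± 2.59 in SLUG KO to 82.5% ± 0.74 in siSMAD2/3/4. CST1, which is not among the 5, had a higher mean TPM than CST3 in WT (427 against 290), Csi (2137 against 923) and siSMAD2/3/4 (2296 against 1054). In SLUG KO CST1 was lower (181 against 242). CST7 took 26.3% ± 1.43 in SLUG KO and 3.95% ± 0.86 in WT.

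Among the 4 cysteine cathepsins, CTSB was the largest share in every group except MII TGFβ and SLUG KO. In MII TGFβ CTSV took 44.6% ± 0.86 and CTSB 36.9% ± 0.78. In SLUG KO CTSL took 44.1% ± 1.58 and CTSB 32.9% ± 0.36 (SD, n = 3). The summed TPM of the 5 cystatins was 5.35 ± 0.0521 times that of the 4 cysteine cathepsins in MI Ctrl, 6.08 ± 0.64 times in MI TGFβ, 3.29 ± 0.15 times in MII Ctrl and 3.02 ± 0.27 times in MII TGFβ. It was 2.06 ± 0.44 times in WT, 2.21 ± 0.13 times in SLUG KO, 3.69 ± 0.23 times in Csi and 4.79 ± 0.15 times in siSMAD2/3/4. Left out of these sums, CST1, CST2 and CST4 had mean TPM of 427, 44.8 and 181 in WT and 181, 15.2 and 64.2 in SLUG KO. Each was at most 0.933 in every sphere group. The ratios thus describe the listed members and do not rank the groups by all cystatins and cathepsins. These are ratios of RNA and rest on the annotated exonic lengths, which differ widely. The 19384 bases of CTSZ lower its share, and the 592 bases of CST6 raise its share against CST3 (3615 bases) and CSTB (3820 bases). In CPM, without length, CST3 (170 in the mean) and CSTB (157) were above CST6 (128.6) in MII Ctrl.

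**Figure D1:**
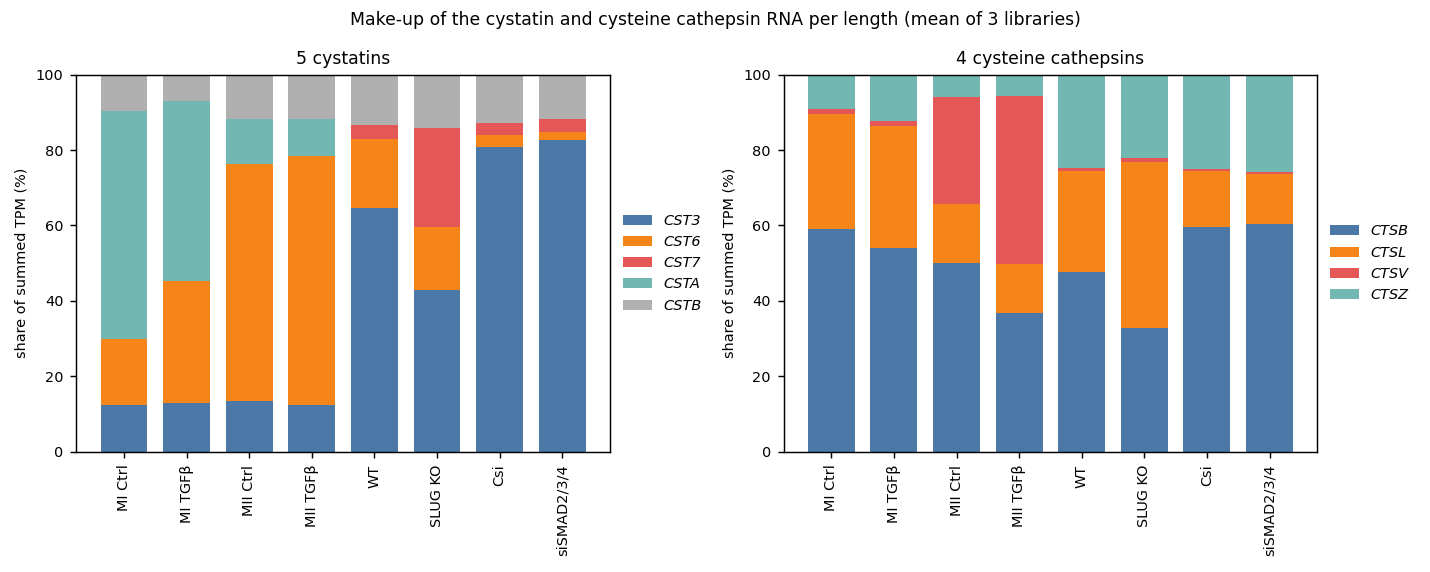
Stacked bars give the share (%) of each gene in the summed TPM of 5 cystatins (left) and of 4 cysteine cathepsins (right), as the mean of 3 libraries per group. Among the 5 cystatins CST6 rather than CSTA is the largest share per length in MII-spheres (62.7% in MII Ctrl), and CST3 is the largest in MDA-MB-231 cells. CTSV takes 44.6% of the summed TPM of the 4 cysteine cathepsins in MII TGFβ.

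Unstimulated MII-spheres were compared with unstimulated MI-spheres to ask what the RAS-transformed line expresses before TGFβ. CTSV was 34.3-fold higher in MII (log2 5.10 ± 0.063 SE, edgeR adjusted p = 3.60e-53) and CST6 3.49-fold higher (log2 1.81 ± 0.052, adjusted p = 1.27e-35), while CSTA was lower by 2.41 on the log2 scale (SE 0.046, adjusted p = 4.34e-44). CTSD and CTSB rose by log2 0.88 ± 0.037 and 0.42 ± 0.035, and CSTB by 0.25 ± 0.041. CTSL, the paralog of CTSV, fell by 0.31 (SE 0.044, adjusted p = 1.05e-08). CST3 (log2 0.08 ± 0.044, adjusted p = 0.0964) and CTSZ (log2 0.04 ± 0.040, adjusted p = 0.458) did not pass, and CST7 was below the filter on low counts. In all, 7 of the 9 members tested changed (adjusted p under 0.05), where 64.2% of all genes did, and 3 were DEGs (also an absolute log2 fold change above 1), where 20.1% of all genes were. The median log2 fold change was 0.25 over the members and 0.02 over all genes. Fewer expressing cells and less RNA per cell cannot be told apart in bulk libraries. With library totals as the only scaling, which moved the median of all genes to 0.11, CST3 (0.17) and CTSZ (0.13) also passed. CST3 passed as well without MI Ctrl replicate 1 (0.11) and without MII Ctrl replicate 3 (0.13).

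In MI-spheres with against without TGFβ the secreted inhibitor CST6 rose 2.19-fold (log2 1.13 ± 0.068, adjusted p = 1.01e-11) and was the only DEG among the 9 members tested. CTSZ rose by log2 0.51 ± 0.055 (adjusted p = 1.22e-07) and CST3 by 0.31 ± 0.052 (adjusted p = 4.44e-05). CTSL rose by 0.14 ± 0.056 (adjusted p = 0.0346) and CSTB fell by 0.21 (SE 0.055, adjusted p = 0.00238), although the CPM ranges of CSTB overlapped. CSTA (-0.09 ± 0.074), CTSB (-0.06 ± 0.051), CTSD (0.00 ± 0.055) and CTSV (0.08 ± 0.14) did not pass, with adjusted p from 0.309 to 0.973. Thus 5 members changed, 4 of them upward, where 56.0% of all genes changed and 13.6% were DEGs. The median was 0.08 over the members and -0.02 over all genes. Library totals as the only scaling moved the median of all genes to -0.15. CTSL was then at 0.00 and did not pass, and CTSB (-0.20) and CSTA (-0.23) passed as lower. CTSL also missed the threshold without MI Ctrl replicate 1 (0.13) or 2 (0.15) or MI TGFβ replicate 1 (0.13), and CSTA passed without MI TGFβ replicate 3 (-0.21). These log2 fold changes were scaled within the 6 libraries compared and can differ slightly from ratios of the CPM given above.

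In MII-spheres with against without TGFβ CTSV rose 2.13-fold (log2 1.09 ± 0.038, adjusted p = 1.40e-30) from its already high level and was the only DEG among the 9 tested. The inhibitor CST6 rose by log2 0.37 ± 0.049 (adjusted p = 5.43e-09) and CSTB by 0.28 ± 0.039 (adjusted p = 1.95e-08). CTSZ rose by 0.35 ± 0.041, CST3 by 0.19 ± 0.049 and CTSL by 0.17 ± 0.047, although the CPM ranges of CST3 overlapped. CSTA (0.06 ± 0.060), CTSB (-0.01 ± 0.035) and CTSD (0.07 ± 0.037) did not pass, with adjusted p = 0.395, 0.845 and 0.0978. In all 6 members changed and none of them fell, where 57.6% of all genes changed and 10.6% were DEGs. The median was 0.19 over the members and -0.02 over all genes. With library totals, which moved the median of all genes to -0.15, CST3 (0.06) and CTSL (0.04) did not pass and CTSB (-0.14) passed as lower. CST3 did not pass in DESeq2 (0.23, adjusted p = 0.0655), and CTSD passed there (0.11) and without MII Ctrl replicate 2 (0.12) or MII TGFβ replicate 1 (0.10) or 2 (0.09).

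The responses of both lines were compared in a single fit of the 12 sphere libraries, as the interaction of line and TGFβ. CTSV responded more in MII-spheres by log2 1.02 ± 0.12 (adjusted p = 8.30e-09), CSTB more by 0.50 ± 0.068 (adjusted p = 2.09e-07), and CST6 less, with a difference of -0.75 ± 0.093 (adjusted p = 4.41e-08). For CTSZ (-0.15 ± 0.069), CST3 (-0.11 ± 0.082) and CTSL (0.04 ± 0.076) the difference did not pass, with adjusted p = 0.126, 0.402 and 0.791. CSTA (0.16 ± 0.10), CTSB (0.06 ± 0.063) and CTSD (0.08 ± 0.070) did not pass either. Thus 3 of 9 members changed, where 22.4% of all genes did, and CTSV was a DEG, where 5.84% of all genes were. Without MI TGFβ replicate 3 the count was 5, since CSTA (0.26) and CTSZ (-0.19) then passed. Over all genes 4750 of 19330 then changed, instead of 4156 of 18591. CTSZ also passed without MI TGFβ replicate 2 (-0.23).

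**Figure D2:**
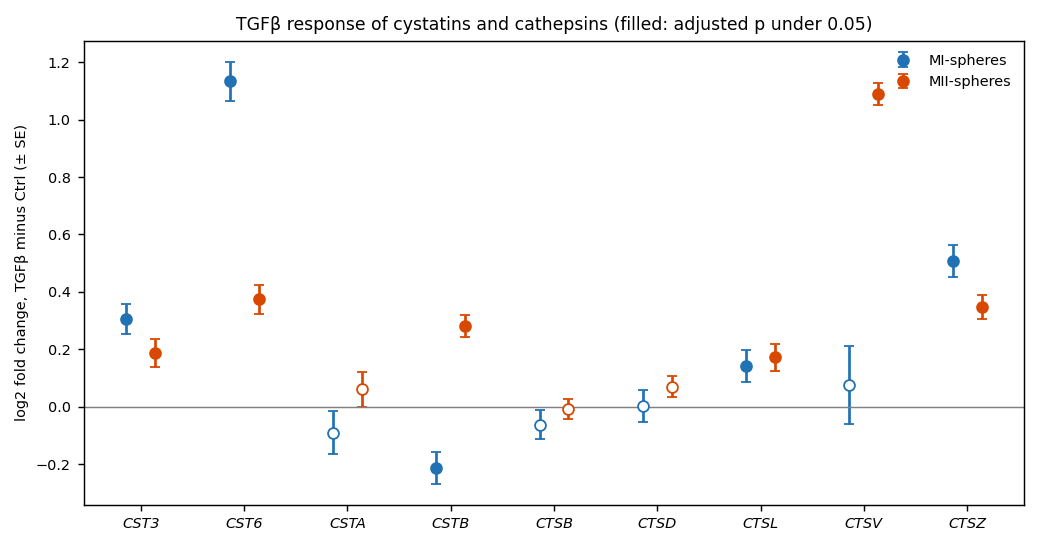
Points give the log2 fold change of TGFβ over Ctrl with its standard error for 9 members in MI-spheres (blue) and MII-spheres (orange), filled where the adjusted p was under 0.05. CST6 stands out in MI-spheres at 1.13 and CTSV in MII-spheres at 1.09, and CSTB lies below 0 in MI- and above 0 in MII-spheres.

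In MDA-MB-231 cells the libraries labelled SLUG KO were compared with WT to ask what SLUG, a transcriptional repressor, controls. CST7 was 9.86-fold higher (log2 3.30 ± 0.18, edgeR adjusted p = 0.00125), with no overlap between the groups. CTSD was 2.18-fold higher (log2 1.13 ± 0.22, adjusted p = 0.0427), at 666, 534 and 630 CPM against 208.5, 344 and 271 CPM in WT. CTSL was 2.22-fold higher in the fit (log2 1.15 ± 0.25) without passing (adjusted p = 0.0555), and its groups did not overlap. In DESeq2 it passed (log2 1.19, adjusted p = 0.00326). CSTB (0.73 ± 0.31), CTSV (0.71 ± 0.22), CST6 (0.42 ± 0.21), CTSZ (0.26 ± 0.18), CTSB (-0.11 ± 0.17) and CST3 (-0.10 ± 0.28) did not pass, with adjusted p from 0.153 to 0.871, and CSTA was not tested. Of 9 members 2 changed, where 3.33% of all genes did, and both were DEGs, where 3.05% of all genes were. The median was 0.71 over the members and -0.05 over all genes.

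WT replicate 2 set how many members passed. It held the highest CST3 (382 CPM), CTSD and CTSB (312 CPM) of the WT libraries and the lowest CSTB (29.7 CPM) and CTSL (59.1 CPM). Its CTSZ (302 CPM) and CST6 (14.2 CPM) were also the highest of the WT libraries. Without it 7 members passed. CST7 (3.30), CTSD (1.33), CTSL (0.94), CTSV (0.66), CST6 (0.57), CSTB (0.46) and CTSZ (0.39) were then all higher, CST3 was 0.26 and CTSB 0.01, and 5592 of 17909 genes changed instead of 581 of 17428. Leaving out any of the other 5 libraries in turn left 1 member, CST7, past the threshold, and the CTSD call was lost. Over all genes 133 to 378 changed in these fits. CST7 is a gene of leukocytes, and of the 8 leukocyte markers 1 had a mean of at least 1 CPM in each of these groups. They summed to 2.74 to 3.06 CPM per SLUG KO library and 4.65 to 5.59 CPM per WT library, mostly from CD14 (means of 2.56 and 4.26 CPM). CD3E was at 0 in every SLUG KO library. No leukocyte marker passed the adjusted threshold with all 6 libraries in edgeR or DESeq2, and 1 had an unadjusted p under 0.05 in each. Over all genes 3321 of 17428 had an unadjusted p under 0.05 in edgeR.

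Depletion of SMAD2, SMAD3 and SMAD4 was compared with Csi to ask which genes depend on SMADs in MDA-MB-231 cells. The changes were small. CTSD rose by log2 0.36 ± 0.039 (adjusted p = 7.56e-09) from 1068, 1036 and 1096 CPM to 1404, 1420 and 1299 CPM, and CTSL fell by 0.38 (SE 0.050, adjusted p = 2.24e-07). CST3 rose by 0.21 ± 0.044 and CST7 by 0.30 ± 0.10 (adjusted p = 0.0176), while CTSB fell by 0.18 (SE 0.037) and CTSZ by 0.14 (SE 0.039). CST6, which TGFβ raised in both sphere lines, was -0.29 ± 0.13 and did not pass (adjusted p = 0.0704), although its groups did not overlap. CSTB (0.06 ± 0.048) and CTSV (-0.02 ± 0.18) did not pass, and CSTA was not tested. Thus 6 of 9 members changed, 3 in each direction, where 36.0% of all genes changed, and no member was a DEG in edgeR or DESeq2, where 1.90% of all genes were in edgeR. At an unadjusted p under 0.05 the edgeR count was 7, where 7689 of 17696 genes were. CST7 missed the threshold in DESeq2 (0.31, adjusted p = 0.0528) and without Csi replicate 1 (0.25, adjusted p = 0.0658). The median was -0.02 over the members and 0.00 over all genes.

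The flow cell in the file names, which the batch label contradicts, moved with part of this comparison. With flow cell, as read from the file names, as a term 4 members passed: CTSD (0.29), CTSL (-0.46), CTSB (-0.20) and CTSZ (-0.19). CST3 (0.14, adjusted p = 0.0658) and CST7 (0.33, adjusted p = 0.0893) did not. Over all genes 4362 of 17696 then changed, instead of 6365 without this term. Within the flow cell of the controls, siSMAD2/3/4 replicate 3 held 1299 CPM of CTSD, above the 3 Csi libraries, and 50.8 CPM of CTSL, below their 67.1 to 72.5 CPM. It also lay above Csi for CST3 (907 CPM) and CST7 (9.56 CPM) and below Csi for CTSB (416 CPM), CTSZ (323 CPM) and CST6 (4.02 CPM).

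**Figure D3:**
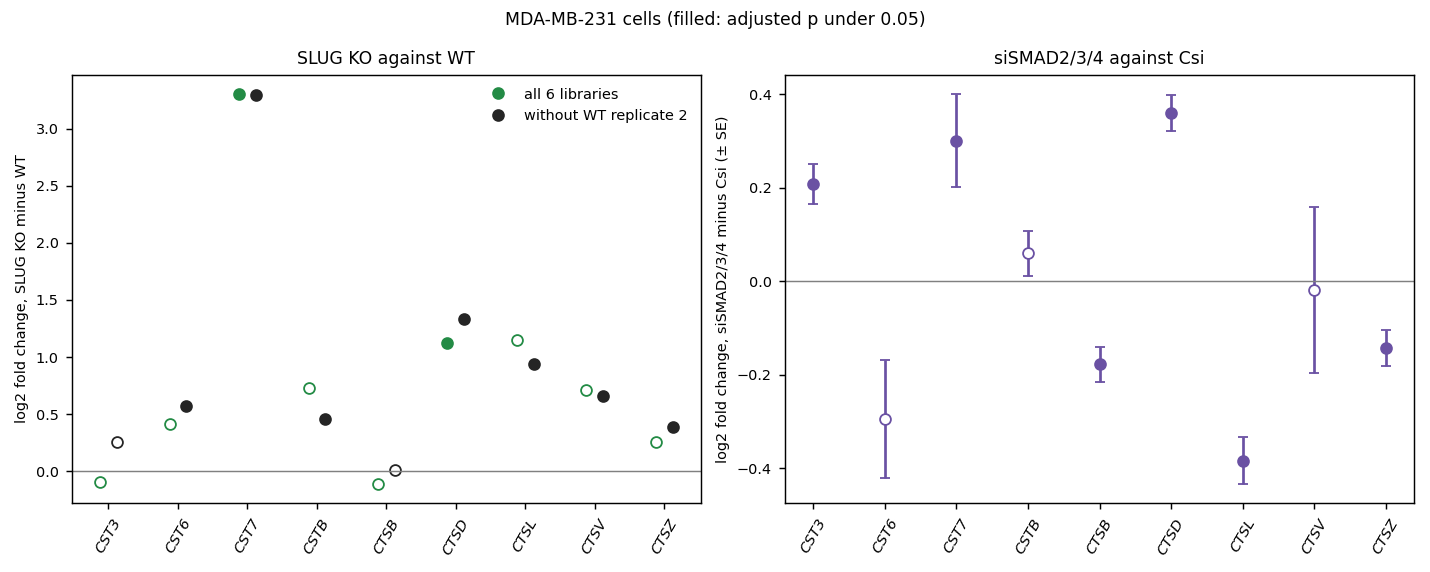
The left panel gives the log2 fold change of SLUG KO over WT for 9 members with all 6 libraries (green) and without WT replicate 2 (black), the right panel that of siSMAD2/3/4 over Csi with its standard error, filled where the adjusted p was under 0.05. CST7 lies at 3.30 with or without WT replicate 2, whereas 2 members pass with it and 7 without it.

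The other genes of the pathway were counted from lists compiled with earlier results of these data known. Of 10 other cathepsins, 7 were tested in MI-spheres, where TGFβ raised 1 and lowered 5, and 7 in MII-spheres, where it raised 3 and lowered 2, against 56.0% and 57.6% of all genes changed, and none of these was a DEG. In the interaction 5 of 7 passed, each with a difference above 0 (MII- minus MI-spheres), where 22.4% of all genes passed. None of the 7 was a DEG there. CTSH, an aminopeptidase, and CTSO were DEGs in the libraries labelled SLUG KO, at log2 1.66 ± 0.19 (adjusted p = 0.00651) and 1.34 ± 0.24 (adjusted p = 0.0285). They were 2 of the 9 other cathepsins tested there, where 3.05% of all genes were DEGs. Over the 6 fits that left out 1 library each, CTSH passed in 4 and CTSO in 1, that without WT replicate 2.

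Of 13 other cystatin-type genes, 3 were tested in the SLUG KO comparison and all 3 fell, where 3.33% of all genes changed. CST4, CST2 and CST1, salivary cystatins that form a cluster with CST3 and have closely similar sequences, fell by 1.36 (SE 0.19), 1.41 (SE 0.22) and 1.10 (SE 0.18) on the log2 scale, with adjusted p = 0.0128, 0.0179 and 0.0209. Over the 6 fits without 1 library each they were lower in all, but CST4 passed in 2 and CST2 and CST1 in 1, that without WT replicate 2. Reads may be split or dropped between such near copies. CST1 averaged 45.8 CPM in SLUG KO and 96.6 CPM in WT. None of the 13 passed the filter in MI-spheres with and without TGFβ.

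SERPINB3, SERPINB4 and SERPINB13 are serpins that inhibit cysteine cathepsins, and SPOCK1 is a proteoglycan that inhibits CTSL. All 4 changed in MI-spheres, 3 upward and 1 downward, and all 4 rose in MII-spheres, where 56.0% and 57.6% of all genes changed. SERPINB13 was a DEG in both (log2 1.09 ± 0.067 in MI, 1.12 ± 0.20 in MII). SERPINB3 (1.18 ± 0.038) and SERPINB4 (1.61 ± 0.070) were DEGs in MII-spheres and SPOCK1 (1.44 ± 0.23) in MI-spheres. The response of MII- minus that of MI-spheres was 1.49 ± 0.069 for SERPINB3 and 1.00 ± 0.11 for SERPINB4, both past the threshold. SERPINB3 and SERPINB4 are near copies, so reads may be split between them. Between the unstimulated lines all 4 changed, where 64.2% of all genes did. SPOCK1 was higher in MII-spheres by log2 3.41 ± 0.13, whereas SERPINB13 fell by 3.55 (SE 0.12) and SERPINB3 by 1.15 (SE 0.039).

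Of 24 lysosomal membrane, hydrolase and acidification genes, 18 changed with TGFβ in MI-spheres (12 up, 6 down), 21 in MII-spheres (17 up, 4 down), 20 between the unstimulated lines (9 up, 11 down), none in SLUG KO and 12 in siSMAD2/3/4 (4 up, 8 down), and none was a DEG in these comparisons by edgeR or DESeq2. Over all genes 56.0%, 57.6%, 64.2%, 3.33% and 36.0% changed in these comparisons, in this order. Of 10 sorting and processing genes, 6 changed in MI-spheres (5 up, 1 down), 6 in MII-spheres (4 up, 2 down), 8 between the lines (4 up, 4 down), 1 in SLUG KO (up) and 5 in siSMAD2/3/4 (3 up, 2 down), against the same shares of all genes. The DEG among them was LRP1, an endocytic receptor for secreted proenzymes, which fell by 2.82 (SE 0.055) in unstimulated MII- against MI-spheres. MITF and TFEB, factors of the family that drives lysosomal genes, were higher in unstimulated MII-spheres by log2 1.31 ± 0.070 and 1.16 ± 0.098, whereas TFE3, the third factor of this family tested, fell by 0.24 (SE 0.072). In the SLUG KO comparison no lysosomal gene passed edgeR's adjusted threshold with all 6 libraries, and the median over the 24 was 0.47. At an unadjusted p under 0.05 the edgeR count was 11 of the 24, where 3321 of 17428 genes were. In DESeq2 3 passed the adjusted threshold, where 1204 of 23008 genes did. Without WT replicate 2, 18 of the 24 passed in edgeR, 17 of them higher, where 5592 of 17909 genes changed.

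The gene whose pattern was most like that of each member was taken as the highest Pearson's r of log2(CPM + 0.5) over the 8 group means, among 11950 genes. For CTSV it was SOX6 (r = 0.995), with 89 genes at r of at least 0.95, and for CSTA SLC6A11 (r = 0.998), with 708 such genes. For CST6 it was SWI5 (r = 0.990, 142 such genes) and for CST7 FCMR (r = 0.991, 154 such genes). TECR came first for CST3 (r = 0.995, 304 such genes) and PLPP5 for CSTB (r = 0.975, 6 such genes). IL11RA was nearest to CTSB (r = 0.989, 27 such genes) and MT-CO3 to CTSD (r = 0.983, 11 such genes). ATF1 was nearest to CTSL (r = 0.974, 11 such genes) and TPGS2 to CTSZ (r = 0.992, 434 such genes). These r describe 8 points in 3 cell lines and 2 batch labels, and for CTSV and CSTA they rest on the split between lines.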

How the data were processed

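Per the labels, RNA was depleted of ribosomal RNA, made into stranded libraries and sequenced as pairs. Trimming by the authors used Trimmomatic, alignment to GRCh38 used STAR, and raw counts per gene were deposited, 1 file per library. Per the file headers, featureCounts 2.0.0 counted fragments over GENCODE 38 exons with both ends mapped, a mapping quality of at least 30 and no strand. Names came from GENCODE 44 and covered 60463 of 60708 genes (99.6%). Here counts were filtered with edgeR's filterByExpr, scaled with TMM and tested with edgeR 4.0.16 (R 4.3.3), each comparison on its own libraries, and p-values were adjusted by Benjamini-Hochberg across every gene in the fit. CPM were scaled over 24 libraries.

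The study's own comparisons used DESeq2, which was an alternative here (DESeq2 1.42.0), with its size factors in edgeR, library totals, no filter, at least 10 counts in every library, a replicate block, each library left out, and flow cell as a term. The members and lists were chosen with earlier results of these data known. All 10 members are named in every comparison. Genes of other lists are named if they were DEGs with a mean of at least 5 CPM in a group compared, up to 5 per list by adjusted p. Promoters are RefSeq's. The 3 libraries of a group and 14124688 to 38406952 counts per library set the precision.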

Additional observations from a re-analysis of the deposited data

Results flagged for a closer look

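The TGFβ response differed between the lines for 3 members, by the interaction term of the fit over the 12 sphere libraries (edgeR, adjusted over all genes). The difference, MII- minus MI-spheres on the log2 scale, was 1.02 for CTSV, 0.50 for CSTB and -0.75 for CST6. Over the fits that left out 1 library each it stayed between 0.88 and 1.11 for CTSV and between -0.85 and -0.69 for CST6.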

How the results depend on the processing

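Over the alternatives, 637 of 711 member fold changes kept their direction and their side of the threshold. The 30 that changed sign all belonged to members not called. Members called changed sign in 0 cases. In the SLUG KO comparison the count of members changed was 2, and 1 with at least 10 counts in every library or with a replicate block, since CTSD was then at 1.10 and 1.15 with adjusted p = 0.0687 and 0.141. It ranged from 1 to 7 over fits without 1 library, 7 being without WT replicate 2, and 133 to 5592 genes changed over these fits. For the interaction the member count ranged from 3 to 5 over such fits, and 3640 to 4750 genes changed. The replicate block moved no other count by over 1.5 times, and the numbers share no pairing in the labels (correlations of same-numbered deviations -0.12 to 0.03).

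Signs turned for values near 0. With library totals CTSD was -0.13 and CTSV -0.065 in MI-spheres, and CSTA -0.071 and CTSD -0.061 in MII-spheres under TGFβ. Without a filter CTSD was -0.00097 in MI-spheres, CTSB 0.027 in MII-spheres and CTSZ -0.0037 between the lines, with at least 10 counts CTSD was -0.033 in MI-spheres, and in DESeq2 CTSB was 0.028 in MII-spheres. With flow cell as a term CSTB was -0.036 and CTSV 0.00085 in siSMAD2/3/4. Without 1 library, values in MI-spheres ran from -0.21 to 0.0010 for CSTA, -0.020 to 0.064 for CTSD and -0.026 to 0.19 for CTSV, and in MII-spheres from -0.015 to 0.12 for CSTA and -0.037 to 0.026 for CTSB. The interaction ran from -0.0010 to 0.089 for CTSB, -0.0057 to 0.13 for CTSD and -0.064 to 0.088 for CTSL. SLUG KO ran from -0.26 to 0.26 for CST3 and -0.17 to 0.0085 for CTSB, and siSMAD2/3/4 from -0.064 to 0.040 for CTSV. The cause was not tested. With library totals, 9 of 10 members kept their highest group. In the SLUG KO comparison CTSL at 1.15 did not pass with all 6 libraries, whereas CTSZ at 0.39 passed without WT replicate 2. CST7 in the spheres and CSTA in MDA-MB-231 cells had too few fragments to be tested.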
